A study of Petromyzon marinus with 2 samples.

Results

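Solute carrier genes encode membrane proteins that move small molecules across the plasma membrane or the membranes of organelles. Here they are the 67 of 24979 genes measured in the retina of adult sea lampreys (Petromyzon marinus) whose deposited name is SLC, a family number, A and a member number, or the matching SLCO form, and which had a UMI in at least 100 cell barcodes. A UMI, a unique molecular identifier, marks 1 captured transcript so that its amplified copies count once. In all, 88 names matched. Of these, 16 fell under 100 barcodes, and SLC17A6, SLC32A1, SLC5A7, SLC6A9 and SLC6A5 were left out because they define cell classes or are treated with them. Just inside the minimum were SLC15A2 with 106 barcodes and 118 UMIs and SLC2A10 with 124 barcodes and 131 UMIs, and just outside were SLC10A2 with 84 barcodes and 89 UMIs and SLC24A5 with 73 barcodes and 85 UMIs. Solute carriers that the deposited list gives only by a number were not analysed here. Nor were 13 further names that begin with SLC but do not have this form.

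Dissociated adult retinas had been run on a droplet platform for single-cell transcriptomes, as 2 replicates of 1 library each, and nothing was treated or mutated, so the comparisons are between cell classes. The question asked of these libraries was which molecular cell types the retina of this jawless fish holds. The libraries held 12933 and 15958 barcodes with 87882951 and 117426390 UMIs, a median of 4918 and 5557 UMIs per barcode, and shared 83 barcode sequences. The 67 genes took 133574 UMIs (0.152%) in replicate 1 and 173009 UMIs (0.147%) in replicate 2.

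Solute carrier families are numbered by sequence, and a number often groups proteins with related cargo. SLC25 proteins span the inner mitochondrial membrane, SLC30 proteins carry zinc out of the cytosol, and SLC39 proteins carry it in. In the vertebrate retina such transporters load synaptic vesicles, recover transmitter from the synapse, feed neurons and glia, and extrude calcium from photoreceptors. Müller glia are the radial glia of the retina, and bipolar cells carry the photoreceptor signal to amacrine and ganglion cells.

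Cells were placed in 8 classes by UMIs of marker genes, none of them a member, and each class is called by its gate gene. The photoreceptor gate, which needs UMIs of at least 2 of 7 phototransduction and outer segment genes, took 42 cells of replicate 1 and 41 of replicate 2. GLUL (glutamine synthetase) gave 172 and 804 cells, and these also held CLU at 6062 and 5155 CPM, against at most 772 CPM in any other class. They had HES1 at 67.6 and 68.1 CPM. Its levels in the other classes, and the other markers listed for Müller glia, are not given here. CPM is the count of UMIs per 1e6 UMIs of all genes in the cells of that class and library. CHTF18 gave 136 and 243 cells. BEGAIN, together with LHX1, SALL3 or BARHL1, gave 765 and 1777 cells. SLC5A7 with CHAT, the genes of choline uptake and acetylcholine synthesis, gave 837 and 825 cells. SLC32A1, the vesicular transporter of GABA and glycine, gave 2084 and 2157 cells, POU4F2 with SLC17A6 gave 15 and 24, and GAD1, a GABA-synthesizing enzyme, gave 4278 and 5356.

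These gates limit what follows. The POU4F2 cells were few but deep (median 22650 and 27723 UMIs). With a maximum of 6000 genes per cell, the paper's upper limit for ganglion cells, 9 and 13 of them remained. These held 142199 of 348799 and 232807 of 679451 UMIs, so most UMIs of this class came from cells above that limit. Whether those cells were doublets was not tested. The photoreceptor gate was both small and shallow (median 1777 and 1967 UMIs), so a member at a few CPM could not be detected there. The photoreceptor gate also held GAD1 at 1191 and 334 CPM, against 2620 and 2320 CPM in the GAD1 cells, and the part of this in its results was not tested. BARHL1 was widespread, with 222 and 252 CPM in the SLC32A1 cells, and 519 and 1302 of the BEGAIN cells had neither LHX1 nor SALL3. Cells in no gate (4489 and 4453, median 1020 and 2166 UMIs) and cells in 2 or more gates (85 and 256) entered no comparison. The members and classes are shown in the map of levels by class and library.

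**Figure D1:**
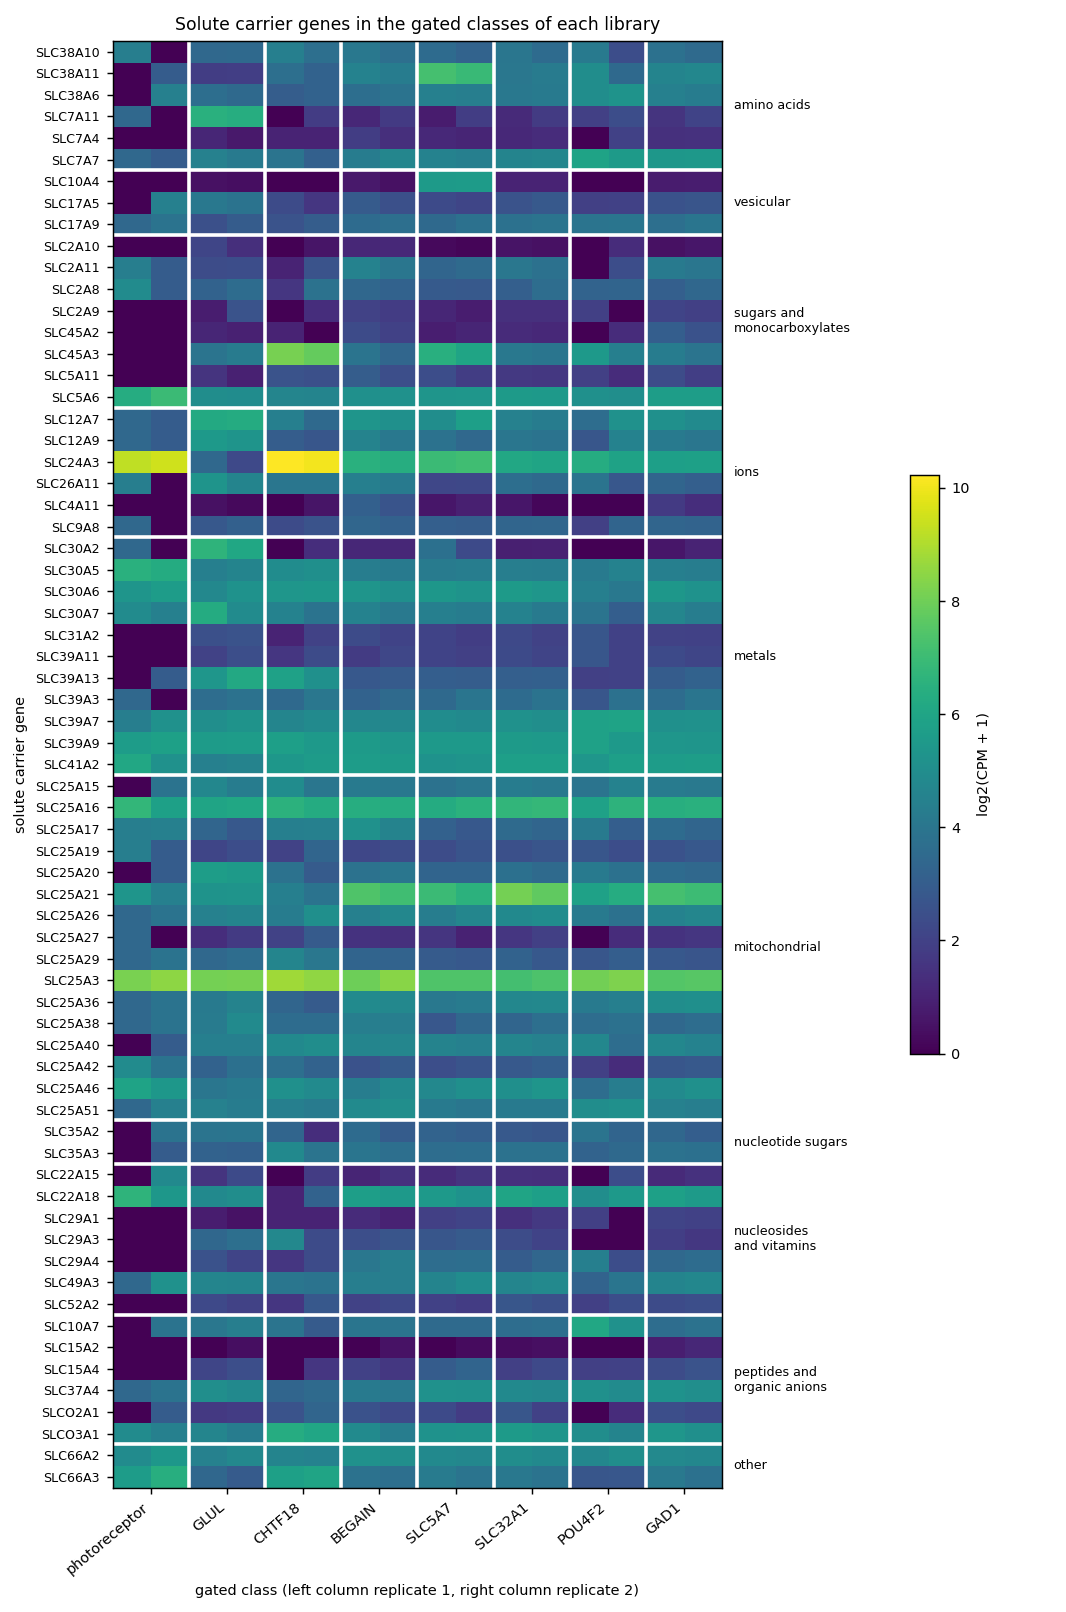
Level of each of the 67 solute carrier genes, as log2(CPM + 1), in the 8 gated classes, with replicate 1 in the left and replicate 2 in the right column of each class and genes grouped by transport family. SLC24A3 is brightest in the CHTF18 cells and the photoreceptor gate, SLC25A3 is bright in all classes, and SLC10A4 is bright only in the pair of SLC5A7 columns.

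The UMIs of each class and library were summed, and each class was set against the other 7, averaged, in 1 fit over 15602 genes that passed a filter on low counts. Of the 67 members, 66 were tested, SLC15A2 being the one below the filter. A gene was called when edgeR's quasi-likelihood test gave a Benjamini-Hochberg adjusted p under 0.05 and the difference was at least 2-fold. By this rule 40 of 66 members were higher in at least 1 class, where 50.9% of all tested genes were, and 14 were lower in at least 1 class, where 27.4% of all tested genes were. The other 22 members were called in neither direction in any class, a state shared by 43.0% of all tested genes. These are 60.6%, 21.2% and 33.3% of the members tested. The mean of the other classes is a mean of fitted log2 levels, so a class with few or 0 UMIs draws it down. Without the 2 smallest classes (photoreceptor gate and POU4F2), an alternative chosen after seeing the data, 33 members were higher and 21 lower in at least 1 class. The shares of all tested genes were not taken for that fit, so these 2 counts cannot be set against them.

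The classes differed in how many members they held above the others. GLUL cells had the most, with 16 members higher (20.0% of all tested genes were) and 3 lower (12.2%). In the CHTF18 cells 11 were higher (10.1%) and 7 lower (8.85%). BEGAIN cells had 7 higher (8.99%) and 0 lower (1.50%), SLC5A7 cells 7 higher (9.34%) and 1 lower (3.99%), and GAD1 cells 7 higher (9.67%) and 1 lower (1.70%). In the photoreceptor gate 4 were higher (5.31%) and 2 lower (4.85%), and in the POU4F2 cells 3 were higher (8.07%) and 3 lower (5.40%). SLC32A1 cells had only SLC25A21 higher (9.06%) and 0 members lower (2.72%). The percentages in parentheses are the shares of all tested genes called the same way. Of the 66 members, 24.2% were higher in the GLUL cells and 16.7% in the CHTF18 cells. In the BEGAIN, SLC5A7 and GAD1 cells the share was 10.6% each. It was 6.06% in the photoreceptor gate, 4.55% in the POU4F2 cells and 1.52% in the SLC32A1 cells. Lower were 10.6% in the CHTF18 cells, 4.55% each in the GLUL and POU4F2 cells and at most 3.03% elsewhere. Over all tested genes, too, the GLUL cells had the largest share higher.

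**Figure D2:**
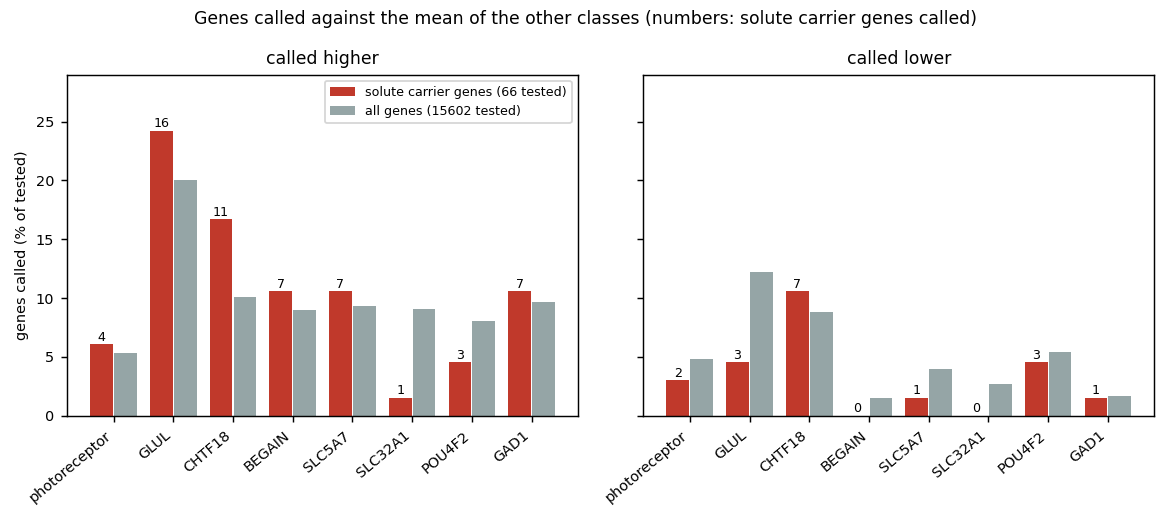
Share of tested genes called higher (left) or lower (right) in each class against the mean of the other 7, for the 66 solute carrier genes tested (red, with their number above the bar) and all 15602 genes tested (grey). The GLUL cells have the tallest bars for higher genes (16 members, against 20.0% of all genes), and the SLC32A1 cells have 1 member higher and 0 lower.

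A stricter reading asks whether a class exceeded each of the other 7 separately. This alternative was also chosen after seeing the data, and 9 members met it, at 13.6% of those tested against 11.5% of all tested genes. They were SLC10A4 and SLC38A11 in the SLC5A7 cells, SLC7A11, SLC30A2, SLC25A20 and SLC12A9 in the GLUL cells, SLC45A3 in the CHTF18 cells, SLC30A5 in the photoreceptor gate and SLC10A7 in the POU4F2 cells. By class these were 2 members in the SLC5A7 cells (1.04% of all tested genes), 4 in the GLUL cells (5.15%), 1 in the CHTF18 cells (1.31%), 1 in the photoreceptor gate (1.83%) and 1 in the POU4F2 cells (1.09%). No member met it in the BEGAIN (0.526%), SLC32A1 (0.295%) or GAD1 cells (0.288%). The 9 genes are plotted by class and library.

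**Figure D3:**
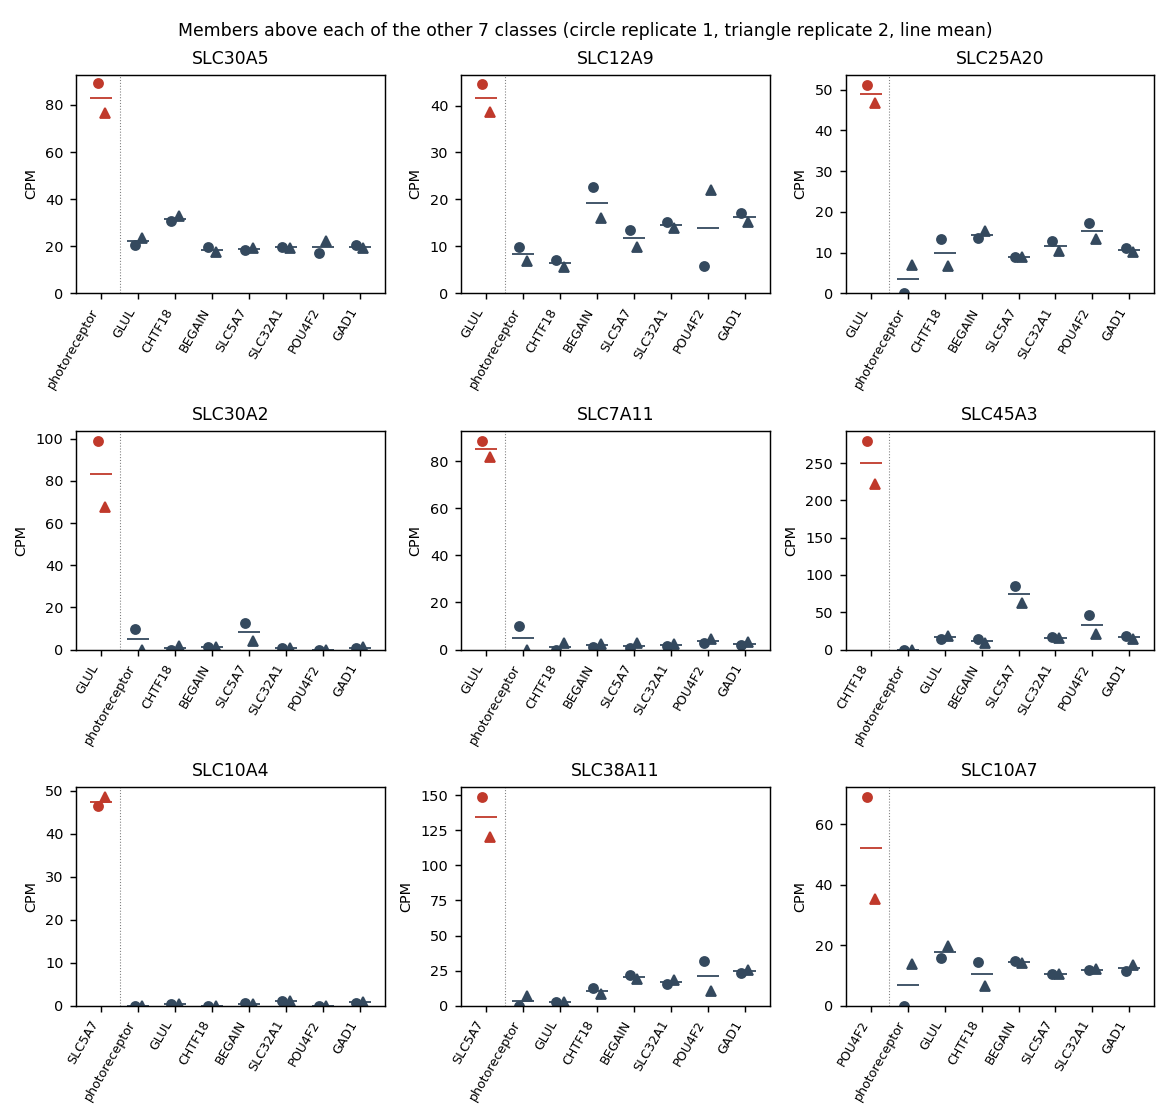
CPM of the 9 members that were above each of the other 7 classes, with the class in question in red at the left and the others in dark grey (circle, replicate 1; triangle, replicate 2; line, mean of the 2 libraries). In each panel both red points lie above all 14 dark points, from 46.5 and 48.5 CPM against at most 1.05 CPM for SLC10A4 to 89.3 and 76.5 CPM against at most 32.8 CPM for SLC30A5.

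A vesicular transporter was nearly restricted to 1 class. SLC10A4 (MSTRG.12860) belongs by sequence to the bile acid transporter family, and in rodents its protein sits on synaptic vesicles of cholinergic and monoaminergic neurons. It had 46.5 and 48.5 CPM in the SLC5A7 cells of replicates 1 and 2, against 1.04 and 1.05 CPM in the SLC32A1 cells, the next class. No UMI was found in the photoreceptor gate, the CHTF18 cells or the POU4F2 cells, and 882 of the 993 UMIs in gated cells came from the SLC5A7 cells. The libraries gave nearly the same level, far above every other class. The difference from the SLC32A1 cells was 5.64 on the log2 scale (standard error 0.21, edgeR quasi-likelihood test, adjusted p = 6.00e-10). A UMI of SLC10A4 was found in 35.2% of SLC5A7 cells (95% exact Clopper-Pearson interval 32.9 to 37.5, counting error only, as for all intervals here) and in 0.755% of SLC32A1 cells (interval 0.517 to 1.06), with medians of 10387.5 and 6273 UMIs per cell. With cells thinned to 1000 UMIs the shares were 4.11% and 0%. Cells with fewer than 1000 UMIs are left out of all thinned values.

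Of the other members on the vesicular list, SLC17A9, a vesicular nucleotide transporter, spanned 4.58 to 14.7 CPM over all classes and was called in none. SLC17A5 (sialin), which exports sialic acid from lysosomes, had 16.0 and 13.9 CPM in the GLUL cells, against 2.05 to 6.75 CPM in the BEGAIN, CHTF18, SLC5A7, SLC32A1, POU4F2 and GAD1 cells. In the photoreceptor gate it had 0 and 20.9 CPM from 3 UMIs in all, so the groups overlap there. It was higher in the GLUL cells than in the mean of the others (log2 fold change 1.82, standard error 0.24, edgeR quasi-likelihood test, adjusted p = 6.28e-06) and was called in no other class. Without replicate 2 the fold was 3.21. Of the 3 members of this list, 2 were higher in at least 1 class (50.9% of all tested genes were) and 0 were lower (27.4%).

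SLC38A11, an orphan member of the family of neutral amino acid transporters, was the other transporter set apart in the SLC5A7 cells. It had 148 and 120 CPM there, against 23.6 and 25.4 CPM in the GAD1 cells and at most 31.5 CPM in any other class. The POU4F2 cells, with 31.5 and 10.3 CPM from 18 UMIs, had the value nearest to it. Its difference from the GAD1 cells, the nearest class in the fit, was 2.56 on the log2 scale (standard error 0.17, edgeR quasi-likelihood test, adjusted p = 1.62e-08). A UMI of SLC38A11 was seen in 66.2% of SLC5A7 cells (interval 63.9 to 68.5), in 17.4% of GAD1 cells (16.6 to 18.1, median 7638.5 UMIs) and in 3.28% of GLUL cells (2.25 to 4.60, median 13152 UMIs). In thinned cells these shares were 13.2%, 2.37% and 0.529%. The GLUL cells, with 2.67 and 2.75 CPM, were the class in which SLC38A11 was called lower (log2 fold change -2.54, standard error 0.57, edgeR quasi-likelihood test, adjusted p = 0.00127), and this call was lost with stricter gates (adjusted p = 1.0) and in thinned cells (adjusted p = 0.990). Without replicate 2 the fold was -1.63.

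Another amino acid transporter, SLC7A11, set the GLUL cells apart. It encodes the light chain of the cystine and glutamate exchanger, which brings in cystine for glutathione synthesis. GLUL cells had 88.5 and 81.9 CPM of SLC7A11, against 2.87 and 4.42 CPM in the POU4F2 cells and 9.93 and 0 CPM in the photoreceptor gate, where the first value was a single UMI. All other classes lay between 0 and 3.19 CPM, so the groups did not overlap. The difference from the POU4F2 cells was 4.73 on the log2 scale (standard error 0.57, edgeR quasi-likelihood test, adjusted p = 4.77e-06). A UMI of it was present in 51.7% of GLUL cells (interval 48.6 to 54.9) and in 2.02% of GAD1 cells (1.75 to 2.33), and after thinning in 7.93% and 0.274%.

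SLC7A7, a light chain for the exchange of cationic amino acids, was spread differently. It had 60.2 and 47.1 CPM in the POU4F2 cells and 42.3 and 42.4 CPM in the GAD1 cells, against 6.96 to 25.2 CPM elsewhere. Both classes lay above all others, and the POU4F2 cells above the GAD1 cells. It was called higher in both the POU4F2 cells (log2 fold change 1.47, standard error 0.27, edgeR quasi-likelihood test, adjusted p = 0.000685) and the GAD1 cells (1.10, standard error 0.15, adjusted p = 4.25e-05). Between these 2 classes no difference was detected at this depth (0.32 on the log2 scale, standard error 0.24, adjusted p = 0.420 in the same test). SLC38A6, a relative of the neutral amino acid transporters, had 31.5 and 36.8 CPM in the POU4F2 cells, against 20.8 and 18.6 CPM in the GAD1 cells and 20.9 and 20.0 CPM in the SLC5A7 cells. Both POU4F2 values were above every other. The call (log2 fold change 1.33, standard error 0.28, edgeR quasi-likelihood test, adjusted p = 0.00255) rested on 36 UMIs, and without replicate 2 the fold was 2.54. In thinned cells the call of SLC38A6 was lost with a fold of 0.18 (adjusted p = 1.0 in the same test). That of SLC7A7 was lost with a larger fold of 2.86 and a standard error of 1.25 (adjusted p = 0.270 in the same test). In the list of amino acid transporters, 4 of 6 members were higher in at least 1 class (50.9% of all tested genes) and 3 were lower in at least 1 (27.4%), while SLC7A4 and SLC38A10 were called in no class.

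Besides SLC7A11, the GLUL cells held 3 members above each other class. SLC30A2, a zinc transporter that in mammals fills secretory vesicles, had 98.8 and 67.7 CPM in the GLUL cells, against 12.6 and 3.87 CPM in the SLC5A7 cells and at most 9.93 CPM elsewhere. The libraries differed in level, but the lower of them was still above every other class. Its difference from the SLC5A7 cells was 3.47 on the log2 scale (standard error 0.33, edgeR quasi-likelihood test, adjusted p = 2.51e-07). A UMI of SLC30A2 was found in 50.1% of GLUL cells (interval 46.9 to 53.3), in 7.52% of SLC5A7 cells (6.30 to 8.90) and in 0.675% of GAD1 cells (0.521 to 0.859). Thinning gave 6.98%, 0.302% and 0.0986%.

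SLC25A20, which carries acylcarnitines into mitochondria for fatty acid oxidation, had 51.1 and 46.6 CPM in the GLUL cells, against 17.2 and 13.2 CPM in the POU4F2 cells and 13.5 and 15.3 CPM in the BEGAIN cells. The difference from the POU4F2 cells was 1.92 on the log2 scale (standard error 0.31, edgeR quasi-likelihood test, adjusted p = 0.000117). SLC12A9, an orphan member of the family of cation and chloride cotransporters, had 44.7 and 38.6 CPM in the GLUL cells, against 22.6 and 16.1 CPM in the BEGAIN cells. That difference was 1.33 on the log2 scale (standard error 0.18, edgeR quasi-likelihood test, adjusted p = 1.02e-05). For both genes the 2 GLUL values lay above those of all other classes.

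The remaining members called higher in the GLUL cells included other ion and metal transporters. SLC12A7 (KCC4), which moves potassium and chloride out of cells together, had 72.9 and 77.0 CPM in the GLUL cells, against 31.4 and 53.7 CPM in the SLC5A7 cells and 39.1 and 34.3 CPM in the BEGAIN cells. The groups did not overlap, and the fit against the mean of the others gave a log2 fold change of 1.94 (standard error 0.21, edgeR quasi-likelihood test, adjusted p = 7.09e-07). SLC26A11, an anion transporter of the sulfate family, had 38.2 and 23.7 CPM in the GLUL cells, against 3.56 and 3.65 CPM in the SLC5A7 cells, where it was called lower (log2 fold change -1.76, standard error 0.33, edgeR quasi-likelihood test, adjusted p = 0.000627). That fold was -0.21 without replicate 1 and -2.11 without replicate 2, although the 2 SLC5A7 values were nearly the same. The lowest value of SLC26A11 over all classes was 0 CPM, against 3.56 CPM over the 6 larger classes. Such a 0 draws the mean of the others down, and its part in the folds of the single libraries was not tested. Without the 2 smallest classes the fold in the SLC5A7 cells was -2.02 (standard error 0.16, edgeR quasi-likelihood test, adjusted p = 2.75e-06). SLC30A7, which loads zinc into the Golgi, had 78.2 and 29.97 CPM in the GLUL cells, against 29.8 and 20.9 CPM in the photoreceptor gate and at most 25.1 CPM elsewhere. The GLUL value of replicate 2 was barely above the highest of these.

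SLC39A13, a zinc transporter that in mammals acts in the secretory pathway, was shared by the GLUL and CHTF18 cells. It had 40.8 and 71.7 CPM in the GLUL cells and 57.3 and 33.8 CPM in the CHTF18 cells, against 0 to 8.41 CPM in the other 6 classes. Which of the 2 classes was higher changed between the libraries, and their difference was 0.53 on the log2 scale (standard error 0.26, edgeR quasi-likelihood test, adjusted p = 0.0972). Against the mean of the others, SLC39A13 was called higher in both, by 3.15 in the GLUL cells and by 2.54 in the CHTF18 cells on the log2 scale (4.20 in the CHTF18 cells without replicate 2).

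SLC29A3, a nucleoside transporter of lysosomes, was also called in both classes. It had 9.54 and 12.3 CPM in the GLUL cells and 26.6 and 4.10 CPM in the CHTF18 cells, against 2.19 to 6.64 CPM in the BEGAIN, SLC5A7, SLC32A1 and GAD1 cells and 0 UMIs in the other 2 classes. The CHTF18 value of replicate 2 lay inside the range of the other classes. The call in the GLUL cells (log2 fold change 3.88, standard error 0.83, edgeR quasi-likelihood test, adjusted p = 0.00114) stood without the 2 smallest classes, but its fold was then 1.36 (adjusted p = 0.00441 in the same test). The call in the CHTF18 cells (3.87, standard error 1.07, adjusted p = 0.0124) did not stand, with the same fold of 1.36 and an adjusted p of 0.0523. Without replicate 1 the fold in the CHTF18 cells was 2.35.

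Other members called higher in the GLUL cells were SLC2A10 and SLC2A9 of the glucose transporter family, SLC31A2, a relative of the copper transporters, SLC25A38 and SLC25A42 of the mitochondrial carriers, and SLC35A2, which brings UDP-galactose into the Golgi. Their log2 fold changes ran from 1.0 for SLC25A42 to 3.09 for SLC2A10, which had only 3.43 and 1.63 CPM. With replicate 2 left out these were 0.46 for SLC25A42, 5.25 for SLC2A10 and 0.76 for SLC2A9, whose fold was 2.49 with both libraries. Against single classes SLC31A2 was called in none, at 0.54 to the POU4F2 and 1.17 to the CHTF18 cells (edgeR quasi-likelihood test, adjusted p = 0.562 and 0.0684). It had 0 UMIs in 1 class, which draws the mean of the others down. For SLC2A9 the GAD1 cells differed from the GLUL cells by -0.51 (adjusted p = 0.353 in the same test) and were the top class in replicate 1. By list, 4 of 11 metal transporters and 3 of 6 ion transporters were higher in the GLUL cells (20.0% of all tested genes were). The median log2 fold change there was 0.49 for the metal list and 1.07 for the ion list, against 0.14 over all tested genes and 0.32 over the members tested. The medians of the remaining lists with members ran from -0.58 to 0.79 (vesicular loading), so a median above that of all genes was not particular to metals and ions. Of the metal transporters, 0 were lower there, and of the ion transporters SLC24A3 was.

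Among the ion transporters, SLC24A3 set the CHTF18 cells and the photoreceptor gate apart. Its protein exchanges sodium for calcium and potassium, and it belongs to the family whose members SLC24A1 and SLC24A2 extrude calcium from mammalian rods and cones. SLC24A3 (MSTRG.2080) had 1201 and 1073 CPM in the CHTF18 cells and 615 and 717 CPM in the photoreceptor gate, against 126 and 137 CPM in the SLC5A7 cells and 9.92 and 3.77 CPM in the GLUL cells. The BEGAIN, SLC32A1, POU4F2 and GAD1 cells lay between 53.8 and 89.6 CPM. Thus the order was CHTF18, photoreceptor gate, SLC5A7, 4 classes close together and GLUL, and the libraries of the first 3 and of GLUL overlapped with no other class. The CHTF18 cells and the photoreceptor gate differed by 0.99 on the log2 scale (standard error 0.21, edgeR quasi-likelihood test, adjusted p = 0.00387), just short of 2-fold, while the CHTF18 cells exceeded the SLC5A7 cells by 3.11 (standard error 0.18, adjusted p = 1.23e-09). In the GLUL cells SLC24A3 was lower than in the mean of the others by 4.59 on the log2 scale (standard error 0.23, adjusted p = 4.97e-11 in the same test).

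A UMI of SLC24A3 was found in 86.0% of CHTF18 cells (interval 82.1 to 89.3, median 7709 UMIs), in 51.8% of the photoreceptor gate (40.6 to 62.9, median 1784 UMIs) and in 4.20% of GLUL cells (3.03 to 5.66, median 13152 UMIs). After thinning the shares were 57.5%, 41.2% and 0.634%, in the same order. The photoreceptor gate then had 33 and 35 of its 42 and 41 cells. In the GAD1 cells SLC24A3 was called lower (log2 fold change -1.08, standard error 0.15, edgeR quasi-likelihood test, adjusted p = 3.44e-05), but the fold was under 2 in thinned cells and without the 2 smallest classes.

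SLC45A3, of the family of proton-coupled sugar transporters, was the second member set apart in the CHTF18 cells. It had 279 and 222 CPM there, against 85.8 and 62.1 CPM in the SLC5A7 cells, 45.9 and 20.6 CPM in the POU4F2 cells and 9.40 to 18.4 CPM in the GLUL, BEGAIN, SLC32A1 and GAD1 cells. The difference from the SLC5A7 cells was 1.77 on the log2 scale (standard error 0.17, edgeR quasi-likelihood test, adjusted p = 6.42e-07). SLC45A3 was also called higher in the SLC5A7 cells than in the mean of the others (log2 fold change 3.10, standard error 0.25, same test, adjusted p = 1.42e-07). That fold was 1.53 without the 2 smallest classes and 2.04 with DESeq2. In the photoreceptor gate 0 UMIs of SLC45A3 were found beside 165 of SLC24A3, whereas the CHTF18 cells had 706 of SLC45A3 beside 3270 of SLC24A3. No UMI in 83 cells allows a share of cells with a UMI of up to 4.35% (upper bound of the exact 95% interval). At a median of 1784 UMIs this sets no limit on the share expressing the gene at a low level. The level in the CHTF18 cells did exceed that in the photoreceptor gate (edgeR quasi-likelihood test, adjusted p = 3.99e-06), by a fold that 0 UMIs leave undefined. SLC45A3 was called lower in the photoreceptor gate (edgeR quasi-likelihood test, adjusted p = 0.0131), though not in thinned cells.

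Other members were higher in the CHTF18 cells at lower levels. SLCO3A1, an organic anion transporter, had 80.8 and 65.0 CPM in the CHTF18 cells, against 47.0 and 39.6 CPM in the SLC32A1 cells, the next class (log2 fold change against the mean of the others 1.38, standard error 0.13, edgeR quasi-likelihood test, adjusted p = 4.89e-07). SLC25A29, a mitochondrial carrier of basic amino acids, had 24.6 and 15.9 CPM there, against 5.46 to 13.9 CPM elsewhere. For both genes the CHTF18 values lay above all others. SLC66A3, of the PQ-loop family, was called higher in the CHTF18 cells, with 55.3 and 62.0 CPM, and in the photoreceptor gate, with 49.6 and 83.5 CPM, against 5.73 to 18.0 CPM elsewhere, and lower in the GLUL and POU4F2 cells. SLC35A3, SLC25A27, SLCO2A1 and SLC5A11 were called as well, the last 3 from 14 to 23 UMIs.

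CHTF18 cells also had the most members called lower, 7 or 10.6% of those tested, near the 8.85% of all tested genes. SLC22A18, a relative of the organic cation transporters, had 1.02 and 8.19 CPM in the CHTF18 cells, against 27.9 to 99.3 CPM in every other class. The libraries of the CHTF18 cells lay below all others, and the log2 fold change was -2.91 (standard error 0.34, edgeR quasi-likelihood test, adjusted p = 5.09e-06). The same held in thinned cells, at -2.97 with an adjusted p of 0.00109, and without replicate 2 the fold was -5.49. SLC25A21, SLC25A36, SLC12A9, SLC37A4, SLC7A7 and SLC38A6 were called lower too, by 1.03 to 2.34 on the log2 scale. Without replicate 2 the fold of SLC38A6 turned to 0.22 and that of SLC7A7 was -0.70. The lowest value of SLC38A6 was 0 CPM over all classes, against 7.16 CPM over the 6 larger ones. A 0 draws the mean of the others down, and its part in the change of sign was not tested. Of these 6 members called lower, only SLC25A21 was still called in thinned cells, and SLC25A36 had the opposite sign there (0.19, adjusted p = 1.0 in the same test). SLC37A4, which carries glucose 6-phosphate into the endoplasmic reticulum, had 9.21 and 10.8 CPM in the CHTF18 cells, against 15.9 to 36.1 CPM in the other classes except the photoreceptor gate, where 3 UMIs gave 9.93 and 13.9 CPM.

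In the photoreceptor gate the calls beside SLC24A3 rested on few UMIs. SLC30A5, a zinc transporter of the early secretory pathway, had 89.3 and 76.5 CPM from 20 UMIs, against 30.7 and 32.8 CPM in the CHTF18 cells and 17.2 to 23.5 CPM elsewhere. The difference from the CHTF18 cells was 1.12 on the log2 scale (standard error 0.30, edgeR quasi-likelihood test, adjusted p = 0.0413). Against the mean of the others it was 1.76 (standard error 0.30, adjusted p = 0.000604 in the same test), and in thinned cells the sign turned (-0.16, adjusted p = 1.0). A UMI of SLC30A5 was found in 14.5% of these cells (interval 7.70 to 23.9), against 20.8% of CHTF18 cells (16.9 to 25.3), so the level and the share of cells gave different orders, and in replicate 2 a single cell held 6 of the 11 UMIs. SLC5A6, which takes up biotin and pantothenate, had 79.4 and 125 CPM from 26 UMIs, against 51.1 and 50.6 CPM in the GAD1 cells, the next class, and it was called higher (log2 fold change 1.37, standard error 0.25, edgeR quasi-likelihood test, adjusted p = 0.00112). This call was not kept after thinning (adjusted p = 0.232) or with looser gates (adjusted p = 0.192).

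Levels of SLC25A21 differed between the neuron classes. It encodes a mitochondrial carrier of oxodicarboxylates formed in lysine and tryptophan breakdown. It had 274 and 214 CPM in the SLC32A1 cells, 168 and 134 CPM in the BEGAIN cells, 149 and 127 CPM in the GAD1 cells and 126 and 95.6 CPM in the SLC5A7 cells. It was at 57.3 and 79.5 CPM in the POU4F2 cells, 37.0 and 37.8 CPM in the GLUL cells, 39.7 and 20.9 CPM in the photoreceptor gate and 20.5 and 13.8 CPM in the CHTF18 cells. The SLC32A1, BEGAIN, GAD1 and SLC5A7 cells thus had the highest levels in both libraries, and the SLC32A1 cells lay above all others without overlap. Against the mean of the others the SLC32A1 cells were higher by 1.90 on the log2 scale (standard error 0.11, edgeR quasi-likelihood test, adjusted p = 5.09e-09), although the difference from the BEGAIN cells was 0.63 (standard error 0.14) and so under 2-fold. SLC25A21 was called lower in the CHTF18 cells, by 2.34 (standard error 0.22, same test, adjusted p = 4.73e-07), and in the photoreceptor gate, by 1.69 (standard error 0.42, adjusted p = 0.0124). The call in the photoreceptor gate was lost in thinned cells (adjusted p = 0.189) and with looser gates (0.15 on the log2 scale, adjusted p = 0.940 in the same test).

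SLC4A11 and SLC45A2 marked the BEGAIN and GAD1 cells at low levels. SLC4A11, a transporter of the bicarbonate family known from the corneal endothelium of mammals, had 7.82 and 5.31 CPM in the BEGAIN cells and 2.32 and 1.56 CPM in the GAD1 cells, against at most 0.885 CPM elsewhere and 0 UMIs in the photoreceptor gate and the POU4F2 cells. The BEGAIN cells exceeded the GAD1 cells by 1.77 on the log2 scale (standard error 0.33, edgeR quasi-likelihood test, adjusted p = 0.000893). SLC45A2, which in other vertebrates supports pigment formation in melanosomes, had 7.32 and 4.90 CPM in the GAD1 cells and 3.99 and 2.93 CPM in the BEGAIN cells, against 0 to 1.47 CPM elsewhere. Only 4.27% of GAD1 cells (interval 3.87 to 4.69) and 0.825% of SLC32A1 cells (0.575 to 1.15) had a UMI of SLC45A2. It was higher in the GAD1 cells (log2 fold change 3.33, standard error 0.44, edgeR quasi-likelihood test, adjusted p = 3.56e-05) and in the BEGAIN cells (2.42, standard error 0.62, adjusted p = 0.00931), in a fit where the photoreceptor gate had no UMI of it. Without the 2 smallest classes they were 2.36 and 1.40. The GAD1 cells differed from the BEGAIN cells by 0.79 (standard error 0.28, adjusted p = 0.0443 in the same test), under 2-fold.

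SLC29A4, which carries monoamines, and SLC29A1, a nucleoside transporter, were called in several neuron classes. SLC29A4 had 15.5 and 19.7 CPM in the BEGAIN cells, against 11.7 and 11.8 CPM in the SLC5A7 cells, 10.1 and 11.3 CPM in the GAD1 cells and 20.1 and 4.42 CPM in the POU4F2 cells, where it was not called. The BEGAIN values lay above all but that single value. It was higher in the BEGAIN cells than in the mean of the others (log2 fold change 2.62, standard error 0.40, edgeR quasi-likelihood test, adjusted p = 0.000171), by 1.37 without the 2 smallest classes, and its calls in the SLC5A7 and GAD1 cells were lost without the 2 smallest classes. SLC29A1 was called higher in the GAD1 cells, with 3.33 and 2.97 CPM, and in the SLC5A7 cells, with 2.83 and 3.32 CPM, against 0 to 2.87 CPM elsewhere. The highest of the other values was a single UMI in the POU4F2 cells.

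In the POU4F2 cells SLC10A7, another bile acid transporter relative, had 68.8 and 35.3 CPM from 48 UMIs, against 15.6 and 19.7 CPM in the GLUL cells, the next class. The lower library was above every other value, and the difference from the GLUL cells was 1.18 on the log2 scale (standard error 0.32, edgeR quasi-likelihood test, adjusted p = 0.00709). A UMI of SLC10A7 was found in 53.8% of these 39 cells (interval 37.2 to 69.9, median 25290 UMIs) and in 21.5% of GLUL cells (19.0 to 24.2). With thinning the call against the mean of the others was lost (log2 fold change 2.81, adjusted p = 0.408 in the same test, against 1.995 with all UMIs and 3.75 without replicate 2), and 7.69% of POU4F2 cells had a UMI. SLC25A42, a mitochondrial carrier of coenzyme A, was called lower from 2 UMIs in these cells (2.87 and 1.47 CPM, against 4.50 to 29.8 CPM elsewhere, log2 fold change -2.11, standard error 0.71, edgeR quasi-likelihood test, adjusted p = 0.0451). DESeq2 gave it an adjusted p of 0.143.

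The mitochondrial family was the largest list, with 16 members. Of these, 7 were higher in at least 1 class (50.9% of all tested genes), 3 lower in at least 1 (27.4%) and 8 called in none (43.0%). SLC25A3, the phosphate carrier that supplies ATP synthesis, was detected in the most barcodes of any member (14815) and ranged from 142 to 436 CPM over all classes and libraries, with the CHTF18 cells at 436 and 368 CPM the highest in both. It was called in no class. SLC25A16 ranged from 55.7 to 111 CPM, also without a call. Outside this family, SLC39A9, a zinc importer, was nearly flat, from 39.4 to 57.3 CPM over all 16 sums, and over the 6 larger classes its highest value was 1.38 times its lowest. SLC39A7, SLC66A2 and SLC25A40 varied by at most 1.60 times over the same 6 classes, and were called in none of the 8. SLC39A7 was nevertheless highest in the POU4F2 cells, at 57.3 and 60.3 CPM, against 19.9 to 37.5 CPM elsewhere, and there it was above the mean of the others by 0.94 on the log2 scale (standard error 0.19, edgeR quasi-likelihood test, adjusted p = 0.00151), under 2-fold.

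The counts of the remaining lists stand beside 50.9% of all tested genes higher and 27.4% lower in at least 1 class. These lists were made by family number, so a list name does not give the cargo of each member. The sugar and monocarboxylate list, for example, holds SLC5A6, which takes up biotin and pantothenate. In that list 7 of 8 members were higher in at least 1 class and SLC45A3 was lower in 1, SLC2A8 being the one never called. Of 7 in the list of nucleosides and vitamins, 3 were higher and 1 lower in at least 1 class. Of 5 tested in the list of peptides and organic anions, 4 were higher and 1 lower. SLC15A4, a lysosomal peptide and histidine transporter of that list, had 6.91 and 8.97 CPM in the SLC5A7 cells, against at most 5.09 CPM elsewhere (log2 fold change 2.66, standard error 0.45, edgeR quasi-likelihood test, adjusted p = 0.000316, and 1.50 without the 2 smallest classes). Both nucleotide sugar members, SLC35A2 and SLC35A3, were higher in 1 class and lower in none. No member belonged to the phosphate and sulfate list.

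Without a test, the libraries could be compared for the class with the highest level. For 36 of the 67 members this was the same class in both libraries, and for 31 the 2 values also lay above every value of every other class. Of the 66 members tested, these were 35 and 30, and the shares of all tested genes were 55.1% and 44.0%. The class was GLUL for 8 of the 31, CHTF18 for 6, the photoreceptor gate and POU4F2 for 4 each, SLC5A7 and GAD1 for 3 each, BEGAIN for 2 and SLC32A1 for 1. This split by class was not made for all tested genes, so it does not set the members apart from them.

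Several members also varied inside a class. The classes were divided by further marker genes, and the subsets were compared with edgeR's quasi-likelihood test in a fit of their own over 15030 genes. A GAD1 cell counted for TMEM121, PDE11A, NR4A2 or RXFP1 at 2 UMIs and for RBPMS at 1 UMI. GAD1 cells that counted for 2 or more of these markers (435 and 416) are left out of the contrasts, ranges and plots. Again 66 members were tested, here with SLC15A2 and without SLC2A10. The markers were chosen after the class results were known. The GAD1 cells that counted for PDE11A and for no other of the 5 markers numbered 73 and 69. SLC25A21 had 423 and 458 CPM in them, against 81.2 to 166 CPM in the other 5 GAD1 subsets compared. This was higher than the mean of those subsets by 1.66 on the log2 scale (standard error 0.11, edgeR quasi-likelihood test, adjusted p = 7.47e-12), and above the level of the SLC32A1 cells as a whole. SLC22A18 was higher there as well, with 93.3 and 120 CPM, against 32.1 to 64.8 CPM (log2 fold change 1.06, standard error 0.20, adjusted p = 0.000483 in the same test). SLC2A9 was the other member called, at 18.3 and 4.07 CPM, and its libraries overlapped with the other subsets. In this subset 3 members were higher, where 2.87% of all tested genes were, and 2 were lower (1.98%), SLC25A29 and SLC5A11, each with 0 UMIs.

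The GAD1 subset with NR4A2 alone (175 and 256 cells) had 66.9 and 38.9 CPM of SLC45A3, against 4.63 to 20.8 CPM in the other subsets. SLC45A3 was the one member higher there (3.03% of all tested genes) and SLC12A7 the one lower (1.62%). The difference of SLC45A3 was 2.22 on the log2 scale (standard error 0.20, edgeR quasi-likelihood test, adjusted p = 3.06e-09). Depth differed between the GAD1 subsets, with medians of 10861 and 10592 UMIs with NR4A2 alone. The medians were 5632 and 5701 UMIs with none of the 5 markers and 12175 and 11278 UMIs with RBPMS alone. The part of depth was not tested. The GAD1 subset with RXFP1 alone (601 and 741 cells) had 123 and 95.7 CPM of SLC24A3, against 26.8 to 53.4 CPM. SLC24A3 was higher there by 1.50 (standard error 0.13, edgeR quasi-likelihood test, adjusted p = 9.99e-10), 1 of 2 members called higher (3.70%), while SLC2A11 and SLC2A9 were lower (4.58%). Thus SLC45A3 and SLC24A3, which were highest together in the CHTF18 cells, were called higher in different GAD1 subsets, and in the NR4A2 subset SLC24A3 stood at 29.3 and 27.8 CPM. In the GAD1 subset with TMEM121 alone 3 members were higher (3.13%) and SLC45A3 was lower (1.88%), and in that with RBPMS alone 2 were higher (3.20%) and 0 lower (1.50%). SLC45A2 was among those with TMEM121, at 8.19 and 9.08 CPM against 1.99 to 8.47 CPM in the other subsets, so that the groups overlapped. GAD1 cells with none of the 5 markers had 1 member higher (0.865%) and 0 lower (0.00%).

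Among the SLC5A7 cells, those with a UMI of ADAMTS12 (452 and 383 cells) had 187 and 202 CPM of SLC24A3, against 53.7 and 72.3 CPM in those without (385 and 442 cells). The median depth was similar, at 10715.5 and 10615 UMIs with ADAMTS12 and 10973 and 9552.5 UMIs without. The difference was 1.67 on the log2 scale (standard error 0.17, edgeR quasi-likelihood test, adjusted p = 5.85e-08). SLC38A11 had 195 and 153 CPM with ADAMTS12, against 93.5 and 86.8 CPM without (1.005 on the log2 scale, standard error 0.13, edgeR quasi-likelihood test, adjusted p = 5.13e-06). SLC12A7 went the other way, with 18.4 and 34.6 CPM against 46.7 and 72.7 CPM (-1.14, standard error 0.25, adjusted p = 0.00257 in the same test). These 2 members higher and 1 lower stood beside 1.47% and 1.76% of all tested genes. SLC10A4 had 50.2 and 55.5 CPM with ADAMTS12, against 42.1 and 41.5 CPM without, and was not called.

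**Figure D4:**
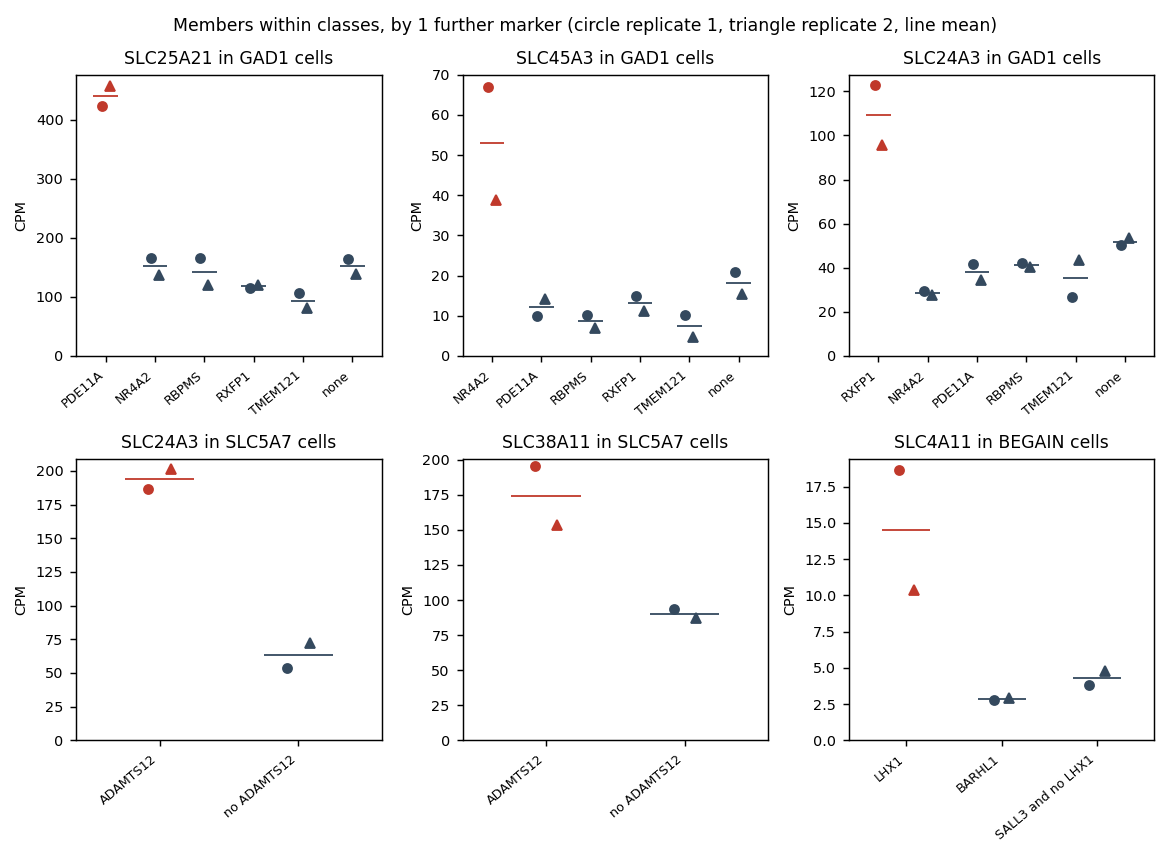
CPM of members in subsets of a class, with the subset named first in the text in red at the left and the other subsets of the same class in dark grey (circle, replicate 1; triangle, replicate 2; line, mean). GAD1 cells with 2 or more markers are not drawn. In all 6 panels both red points lie above every dark point, the widest gap being that of SLC25A21 in the GAD1 cells with PDE11A, at 423 and 458 CPM against at most 166 CPM.

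The BEGAIN cells were the most mixed by their gate, and their members separated by the marker that accompanied BEGAIN. SLC4A11 had 18.6 and 10.4 CPM in the cells with LHX1 (110 and 249 cells), against 2.80 and 2.95 CPM in those with BARHL1 alone and 3.80 and 4.78 CPM in those with SALL3 and no LHX1. It was higher with LHX1 by 1.88 on the log2 scale (standard error 0.37, edgeR quasi-likelihood test, adjusted p = 0.000249), as was SLC5A11, a myo-inositol transporter, at 12.1 and 9.47 CPM against at most 6.83 CPM (1.66, standard error 0.32, adjusted p = 0.000166). These were the 2 members higher with LHX1 (4.46% of all tested genes), and 4 were lower (8.98%). The cells with LHX1 were deeper, with medians of 14122 and 14669 UMIs, against 4918 to 5846 UMIs in the other subsets, and the part of depth was not tested.

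SLC25A21 was lower in the BEGAIN cells with SALL3 and no LHX1 (136 and 226 cells), at 74.4 and 43.3 CPM, against 133 to 213 CPM in the others (log2 fold change -1.35, standard error 0.13, edgeR quasi-likelihood test, adjusted p = 8.84e-09), 1 of 2 members lower there (2.97%), while SLC25A29 and SLC7A4 were higher (5.15%). In the cells with BARHL1 alone 4 members were higher (13.1%) and 8 lower (8.82%). SLC25A3 was among the lower ones, at 149 and 226 CPM against 312 to 507 CPM (-1.37, standard error 0.16, edgeR quasi-likelihood test, adjusted p = 8.24e-08), and SLC37A4 among the higher ones, at 28.0 and 22.0 CPM against 6.55 to 9.88 CPM (1.28, standard error 0.18, adjusted p = 8.41e-07 in the same test). With BARHL1 left out of the gate, an alternative added after seeing the data, SLC25A21 in the BEGAIN cells was no longer 2-fold above the mean of the other classes (0.87 on the log2 scale).

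In the SLC32A1 cells, dividing by the glycine transporters SLC6A9 and SLC6A5 gave few differences. SLC24A3 had 109 and 78.0 CPM in the cells with SLC6A9 alone, against 35.3 to 68.6 CPM in the other 3 subsets, but was not called. No member was higher with SLC6A9 alone (2.20% of all tested genes were), with SLC6A5 alone (0.958%), with both (0.758%) or with neither (0.672%). Nor was one lower with SLC6A9 alone (1.12%), with SLC6A5 alone (0.885%) or with neither (0.233%). The one call was that of SLC2A11 of the glucose transporter family, which was lower in the cells with both transporters at 10.1 and 4.75 CPM, against 11.6 to 23.5 CPM (-1.003 on the log2 scale, standard error 0.26, edgeR quasi-likelihood test, adjusted p = 0.0216). Of all tested genes 0.739% were lower there. The cells with both transporters were deeper, with medians of 8949 and 9086 UMIs, against 4407 to 7024 UMIs in the other subsets, and the part of depth was not tested. In the CHTF18 cells with THBS1, SLC24A3 had 1318 and 1273 CPM, against 974 and 825 CPM in those without, and no member was called (0.106% of all tested genes were higher and 0.719% lower).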

How the data were processed

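The authors deposited unnormalized matrices of UMI counts, genes by barcodes, for 2 libraries, 1 per biological replicate. Their reads were aligned and counted against the NCBI+TruSeq annotation of kPetMar1.pri with Cell Ranger, version 7.0.1 in the matrix headers and 6.0.1 in the submitters' processing notes. Cell sorting appears in the labels but not in the methods. The members, marker lists and classes were chosen with earlier results of these data known.

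Members were taken by their deposited name. Marker genes were named from the deposited list, then from the study's gene table, and last from RefSeq (assembly UKy_Petmar_22M1.pri1.0, which differs, so for names only). Cells with at least 500 UMIs and 330 genes, below the methods' upper limit on genes, were kept (12903 and 15936). The removed barcodes numbered 30 and 22. No doublet caller was run, and a cell that met 2 or more of the first 5 gates was left out.

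Levels are UMIs of the gene per 10000 UMIs of the cell. The photoreceptor gate took cells with UMIs of at least 2 of RCVRN, CDHR1, RBP3, CNGA3, CNGB1-1, ARRB1.3 and ANKRD33B and a summed level of at least 10. GLUL cells had at least 3 UMIs and a level of 10. CHTF18 cells had a level of at least 1, with GAD1, SLC32A1 and SLC5A7 together under 2. BEGAIN cells had a level of at least 1 and a UMI of LHX1, SALL3 or BARHL1. SLC5A7 cells had at least 2 UMIs, a level of 2 and a UMI of CHAT. Of the rest, SLC32A1 cells had at least 2 UMIs and a level of 2, then POU4F2 cells a UMI of POU4F2 and of SLC17A6, then GAD1 cells at least 2 UMIs, a level of 2 and SLC32A1 under 1.

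UMIs were summed per library and class, which is the unit of every test, since cells are not replicates. Sums were filtered (filterByExpr), normalized by TMM and tested in R 4.3.3 with edgeR 4.0.16 (glmQLFit and glmQLFTest, Benjamini-Hochberg over all genes tested), with class and library in the model, as the classes of a library come from the same animals and run. The deviations of the sums of 1 library from the class means had correlations of 0.0328 to 0.775 over 28 pairs (median 0.266). Standard errors are the log2 fold change divided by the square root of F. With 1 library per replicate, p-values rest on how the classes deviate between these 2 libraries beyond the library term. That spread is pooled over the classes and moderated across genes, so it is not the spread of 1 class alone. The test was checked on simulated sums with 4-fold changes in 1 class. These sums had the same spread for every gene, the same mean level in every class apart from the changed genes, and no library effect. The real sums differ in these respects, so the shares found hold for that setting only. In the photoreceptor gate 37.9% of the raised and 7.14% of the lowered genes tested were found, and in the POU4F2 cells 76.0% and 34.7%. The other classes gave 81.4% to 94.0% and 48.0% to 67.7%. In that setting counts of calls, above all of lower calls, thus do not have the same power in each class.

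Genes were named by rule: per class the 3 members of largest fold called higher with at least 30 UMIs and the 1 of largest fold called lower, plus the measured members of a list of transporters known in retina (SLC17A5, SLC24A3, SLC45A2), to which the members above each of 7 classes, within-class results, the most even members and further called members were added after values were seen. Alternatives were DESeq2 1.42.0, no filter on low counts, thinning to 1000 UMIs per cell, gate levels doubled or halved, a minimum of 400 or a maximum of 6000 genes, shared barcodes left out, no library term and each library alone. A marker gene is not reported here.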

Additional observations from a re-analysis of the deposited data

How the results depend on the processing

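The number of members higher in at least 1 class was 40 as reported and lay between 27 and 41 over all alternatives, and the number with the same top class without overlap (31) lay between 21 and 37. The number lower in at least 1 class, 14 as reported, was 12 to 21 under the others but 4 in cells thinned to 1000 UMIs, where 49 members passed the filter. The members counted were not always the same. Without the 2 smallest classes, 32 of the 33 higher, 11 of the 21 lower and 23 of the 37 with a top class were those reported. In thinned cells 22 of the 27 higher and 18 of the 21 with a top class were. Of the 56 gene and class pairs called higher, 28 of the 40 still tested were kept by thinning, 38 of 49 without the 2 smallest classes and 51 of 56 with DESeq2. Of the 17 called lower, thinning kept 4. Without the library term, that is without the replicate block, 38 members were higher and 14 lower, and 52 of the 56 and 17 of the 17 pairs were kept.

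Of 47 named pairs, 30 were called, and 8 of these fell short under at least 1 alternative in which they were tested, 4 of them in the POU4F2 cells when thinned. Not every pair could be tested in thinned cells. Those left out there included the called pairs of SLC29A3, SLC4A11 and SLC45A2. SLC30A5 in the photoreceptor gate turned to -0.16 on the log2 scale when thinned, and the other called pairs among the 47 kept their sign wherever they were tested. Of the 17 not called, 14 changed sign under at least 1 alternative, each library alone included. The fold moved by more than the spread between the 2 libraries in 10 of the 47 pairs without replicate 1 and in 26 without replicate 2. These are not counts of large shifts. The 26 include SLC45A3 in the photoreceptor gate, from -11.43 to -11.40, and the 10 leave out SLC29A3 in the CHTF18 cells, from 3.87 to 2.35. Of all 73 called pairs of members, 21 had a fold that differed by over 1.5 times without 1 of the libraries, and 1 of them (SLC38A6 in the CHTF18 cells) changed sign. With 1 library alone no test has residual degrees of freedom. With a maximum of 6000 genes per cell the POU4F2 class had too few cells and dropped out. Depth limits the photoreceptor gate most, with 244459 UMIs in all.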
